A study of Mus musculus with 4 samples.

Results

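NF-κB is a family of dimeric transcription factors that macrophages hold ready in the cytoplasm and release within minutes of sensing microbial products, cytokines or debris of dead cells. Its 5 subunit genes are Nfkb1, Nfkb2, Rel, Rela and Relb. Inhibitor proteins of the IκB family mask the dimers until the IκB kinase marks them for destruction, and several inhibitors are themselves NF-κB target genes, so the response feeds back on itself. The 5 feedback inhibitors described here are Nfkbia, Nfkbie, Nfkbiz, Tnfaip3 and Tnip1. The 10 genes were taken by symbol, and all 10 were found among the 17013 genes listed in the deposited expression values.

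The values came from bone marrow-derived macrophages of wild-type mice, grown with M-CSF, seeded on porous culture inserts and kept for 24 h with necrotic abdominal fat below the insert. Cultures in both media received artificial necrotic bone fluid (aNBF), a freeze-thaw extract of bone and marrow, so no group was free of necrotic stimuli. Con cultures received the low-fat middle layer of the spun fat preparation and Fat cultures its fat-rich top layer, with 2 libraries of polyA RNA for each. No source used here says whether the 2 libraries of a medium came from separate mice or cultures. The p-values and confidence intervals thus rest on the spread between these libraries, of each gene and over all genes, which may be technical. The age of the mice was not given in the sources used here, and abdominal fat stood in for marrow fat.

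Levels are given as CPM, a gene's reads scaled to a fixed library size, and as TPM, which corrects for gene length too. Whole reads could be recovered from the CPM values, with totals of 33573852 to 40785872 reads per library. Each of the 10 genes had at least 356 reads in every library and passed the filter of 0.5 CPM in at least 2 of the 4 libraries, as did 12470 genes in all. The macrophage marker Adgre1 and the neutrophil marker Ly6g were not found by symbol among the listed genes. Of the 7 macrophage markers found, 0 were called higher and 2, Fcgr1 and Mertk, lower in Fat by the test described below. Their summed level was between 32779 and 34746 CPM in Con and between 25917 and 27440 CPM in Fat. The summed level of 7 adipocyte markers was at most 0.160 CPM in Con and between 2.46 and 4.10 CPM in Fat, that of 3 T cell markers between 3.84 and 4.84 CPM in Con and between 2.32 and 2.60 CPM in Fat, and that of 4 dendritic cell markers at most 0.826 CPM in any library. Neutrophil markers (7 found) summed to between 360.4 and 411.3 CPM in Con and between 350.9 and 352.3 CPM in Fat, B cell markers (4) to between 22.5 and 23.5 CPM in Con and between 18.0 and 21.8 CPM in Fat, endothelial markers (4) to between 4.93 and 6.55 CPM in Con and between 7.31 and 7.85 CPM in Fat, and fibroblast markers (5) to between 613.6 and 637.7 CPM in Con and between 512.4 and 656.3 CPM in Fat. Of the markers of these other cells that passed the filter, the adipocyte gene Cidec (the only adipocyte marker tested) was called higher, and the fibroblast gene Dcn lower, in Fat. The part of these other cells in the results below was not tested, and in bulk RNA fewer cells of a type cannot be told apart from less RNA per cell.

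Several of these genes are textbook NF-κB targets, and parts of their promoters are shown for that reason. The libraries measure RNA levels and nothing at the promoters. RefSeq promoter windows (build GRCm38.p6) were at hand for 7 of the 10 genes, and not for Nfkb1, Relb and Nfkbiz. The NF-κB consensus was searched on both strands in the 250 bases before each annotated start, and overlapping matches were merged. The stretches below end before the annotated start of the gene. They are printed along the gene's own strand with the match in capitals, to show the 2 genes called lower in Fat beside 4 that were not called.
Nfkbie: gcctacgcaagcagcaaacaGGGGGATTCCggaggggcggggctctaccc
Tnip1: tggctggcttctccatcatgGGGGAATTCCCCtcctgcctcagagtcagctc
Nfkb2: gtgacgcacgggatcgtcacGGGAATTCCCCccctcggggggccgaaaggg
Nfkbia: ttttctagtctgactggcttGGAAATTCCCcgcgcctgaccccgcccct
Tnfaip3: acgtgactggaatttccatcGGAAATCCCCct
Rel: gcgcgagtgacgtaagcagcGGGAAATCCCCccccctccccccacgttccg
The stretch of Nfkbie lies at chr17:45555574-45555623 on the plus strand and its match begins 106 bases before the start. That of Tnip1 lies at chr11:54962967-54963018 on the minus strand and begins its match 58 bases before the start. Nfkb2 (chr19:46304678-46304728, plus strand), Nfkbia (chr12:55492648-55492696, minus strand), Tnfaip3 (chr10:19015411-19015442, minus strand) and Rel (chr11:23771031-23771081, minus strand) have their printed matches 39, 29, 12 and 92 bases before the start. Further matches of Nfkb2 and Tnfaip3 are not printed, and the window of Rela held no match. A match was found in 3.90% of all 32851 promoter windows, and in 5.56% of the 9348 tested genes that have a window. A share over the 10 genes would be void, since fewer than 80% of them have a window. A match describes letters and does not show that a factor was bound in these cells.

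Levels between genes were compared in TPM. Nfkbia, the main inhibitor and the fastest to be resynthesised, was the most abundant of the 10 in both media, at 103.3 ± 4.49 TPM (SD, n = 2) in Con and 109.1 ± 3.41 TPM in Fat. Tnfaip3, a ubiquitin-editing enzyme that shuts off signalling upstream of the IκB kinase, came next at 64.1 ± 6.13 TPM in Con and 72.1 ± 0.449 TPM in Fat. Their means over the 4 libraries stood at the 92.1 and 87.4 percentiles of the listed genes. Tnip1, Nfkb1 and Rela followed at 56.7 ± 2.20, 56.3 ± 4.67 and 55.9 ± 0.137 TPM in Con, where neighbours in this order overlapped between libraries. In Fat, Rela came after Tnfaip3 at 56.2 ± 0.984 TPM, with both libraries above those of Nfkb1 (49.5 ± 0.873 TPM), while Nfkb1 and Tnip1 (48.5 ± 0.677 TPM) overlapped. Nfkb2, Nfkbie and Relb were lower in that order in both media, and none of these overlapped with its neighbours. Rel and Nfkbiz were lowest, at 8.46 ± 0.819 and 7.24 ± 1.15 TPM in Con, where they overlapped, and at 8.83 ± 0.669 and 6.18 ± 0.360 TPM in Fat, where they did not.

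The comparison of Fat with Con sets the fat-rich layer against the low-fat layer, with aNBF in both. Fat uptake was not measured in these libraries, so its part in the differences was not tested. Nfkbie and Tnip1, both inhibitors, fell, and no member was called higher. Neither Rela nor Nfkbia was called, and their 95% intervals, which rest on these 4 libraries, reached at most 1.13-fold. The test was limma on log2(CPM + 0.1), fitted across all 12470 genes with Benjamini-Hochberg adjustment, two-sided, and a gene was called at an adjusted p-value under 0.05. Of the 10 genes, 2 were called lower, against 5% of all tested genes, and 0 were called higher, against 3.99%. At an unadjusted limma p under 0.05, 4 of the 10 were lower (12.4% of all genes) and 0 higher (11.8%). On the recovered reads, edgeR's quasi-likelihood test also called 2 lower and 0 higher. Over all 12470 genes it called 648 lower and 490 higher. With the TPM values limma called 0 members lower, where it called 366 of all 12470 genes lower. Without the mean-variance trend it also called 0 members lower, where it called 12 of all genes lower. The 2 calls depended on single libraries too, as given for each gene below. Both Fat libraries lay below both Con libraries for 6 of the 10 genes in CPM, against 26.2% of all genes, and above them for 1, against 29.4%, which makes 7 without overlap against 55.6%. In TPM, 4 were below (20.7% of all genes) and 2 above (36.1%). The median log2 fold change was -0.19 over the 10 genes and 0.01 over all tested genes.

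**Figure D1:**
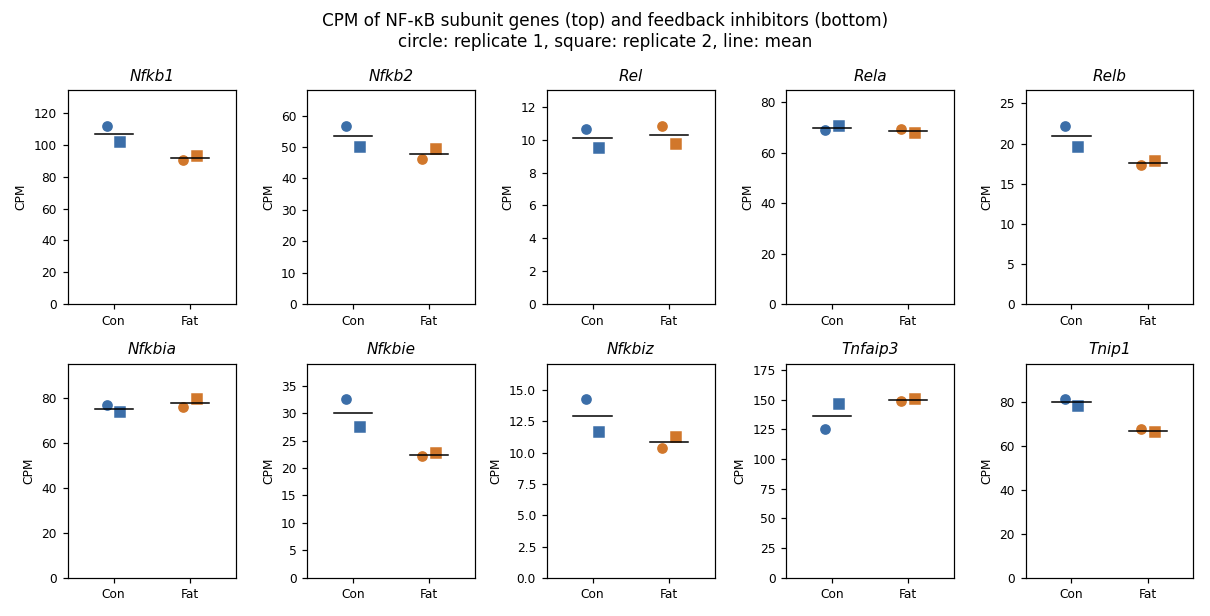
CPM of the 10 genes in the 4 libraries, subunits in the upper and feedback inhibitors in the lower row, each axis starting at 0. Circles are replicate 1, squares replicate 2 and lines the means of Con and Fat; the 2 Fat libraries of Nfkbie (22.1 and 22.7 CPM) and Tnip1 (67.4 and 66.2 CPM) sit below both Con libraries, while those of Rela and Rel overlap with Con.

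Nfkbie encodes an IκB protein that retains dimers in the cytoplasm and is itself resynthesised after NF-κB activation, with a delay relative to Nfkbia. Con replicates 1 and 2 held 32.5 and 27.5 CPM of Nfkbie, against 22.1 and 22.7 CPM in the Fat replicates. The groups did not overlap, and the gap between the 2 Con libraries was wider than that between the 2 Fat libraries. Nfkbie fell by 25.3% in mean CPM, a log2 fold change of -0.41 (standard error 0.09, 95% interval -0.63 to -0.20, limma adjusted p = 0.0338). This was the lowest of the 10 log2 fold changes and stood at the 6.20th percentile of all tested genes. The call was lost without Con replicate 1 (adjusted p = 0.12), Fat replicate 1 (0.0742) or Fat replicate 2 (0.0798), and with the TPM values (0.0815), all of which gave a log2 fold change below 0.

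Tnip1 encodes a ubiquitin-binding partner of the Tnfaip3 protein that restrains signalling to NF-κB. Its levels were 81.1 and 78.3 CPM in Con and 67.4 and 66.2 CPM in Fat. The groups were apart by more than the gap within either. Its log2 fold change was -0.25 (standard error 0.05, 95% interval -0.38 to -0.13, adjusted p = 0.0308). As for Nfkbie, the adjusted p-value rose above 0.05 without Con replicate 1 (0.115), Fat replicate 1 (0.0766) or Fat replicate 2 (0.15) and with TPM (0.0812), and was 0.0424 without Con replicate 2. The 2 libraries of a medium differed by 1.34 SDs of read counting in Con and 0.68 in Fat.

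The other 3 inhibitors were not called. Nfkbia was at 76.9 and 73.7 CPM in Con and 76.0 and 79.5 CPM in Fat, so the groups overlapped, while in TPM both Fat libraries were just above both Con libraries (106.7 and 111.5 against 106.5 and 100.2). Its log2 fold change in CPM was 0.05 (95% interval -0.09 to 0.18, limma adjusted p = 0.67), an interval of 0.942-fold to 1.13-fold. Tnfaip3 was at 125.5 and 146.6 CPM in Con and 148.9 and 150.3 CPM in Fat. Both Fat libraries were above both Con libraries, but Con replicate 1 stood well below the other 3. The Con replicates of Tnfaip3 differed by 7.63 SDs of read counting, the widest such gap among the 10 genes, and the Fat replicates by 0.524. The log2 fold change of Tnfaip3 was 0.14 (95% interval -0.04 to 0.32, adjusted p = 0.319), and without Con replicate 2 it was 0.25 and called (adjusted p = 0.0476), while without Con replicate 1 it was 0.03. Nfkbiz encodes an inducible nuclear IκB protein that also acts as a coactivator of secondary response genes. It was at 14.3 and 11.6 CPM in Con and 10.4 and 11.3 CPM in Fat, with Con replicate 1 apart from the rest and Con replicate 2 just above Fat replicate 2. Its log2 fold change of -0.25 had an interval of -0.53 to 0.03 (adjusted p = 0.25) and was -0.10 without Con replicate 1 and -0.40 without Con replicate 2, and in TPM its groups overlapped.

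None of the 5 subunit genes was called by limma with all 4 libraries and no replicate block, against 9% of all tested genes. By edgeR's quasi-likelihood test 0 were called, against 1138 of all 12470 genes. At an unadjusted limma p under 0.05, 2 of them were lower (12.4% of all genes) and 0 higher (11.8%). Nfkb1, whose product is processed to a DNA-binding subunit without an activation domain of its own, was at 112.1 and 101.7 CPM in Con and at 90.8 and 93.2 CPM in Fat. Both Fat libraries were below both Con libraries, with Con replicate 1 the farthest away. The log2 fold change of Nfkb1 was -0.21 (standard error 0.06, 95% interval -0.36 to -0.07, adjusted p = 0.0859), and without Con replicate 2 it was -0.29 and called (adjusted p = 0.0337). Relb, a subunit of the non-canonical pathway and a target of the canonical one, was at 22.2 and 19.6 CPM in Con and at 17.3 and 17.8 CPM in Fat, again without overlap. Its log2 fold change was -0.25 (95% interval -0.45 to -0.04, adjusted p = 0.135), and -0.15 without Con replicate 1.

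Nfkb2 encodes the precursor that pairs with the Relb protein and is cleaved in the non-canonical pathway. It was at 56.8 and 50.1 CPM in Con and 46.1 and 49.3 CPM in Fat, so that Con replicate 2 and Fat replicate 2 nearly met, and in TPM the groups overlapped. Its log2 fold change was -0.16 (95% interval -0.34 to 0.02, adjusted p = 0.252), and it was -0.073 without Con replicate 1 and -0.25 without Con replicate 2. Of the exon bases of Nfkb2, 11.6% and 6.52% are also annotated to 2 genes on the opposite strand (GENCODE vM21), and whether the reads were counted by strand was not given in the sources used here. The other 9 genes share no exon bases with another gene, and at most 0.0488% of the stretches of 75 bases of any member occur in another gene's transcripts.

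Rela, the main transactivating subunit, was at 69.1 and 70.7 CPM in Con and at 69.5 and 67.9 CPM in Fat. The groups overlapped, and replicates of either medium differed by under 1 SD of read counting (0.81 in Con and 0.875 in Fat). Its log2 fold change was -0.03 (95% interval -0.15 to 0.10, limma adjusted p = 0.825), an interval of 0.90-fold to 1.07-fold. The sign of this log2 fold change turned with the TPM values (0.0067). Rel, the transactivating subunit typical of lymphoid and myeloid cells, was at 10.7 and 9.49 CPM in Con and 10.9 and 9.76 CPM in Fat. Replicate 1 was the higher library in both media. The log2 fold change of Rel was 0.03 with the widest interval among the subunits, -0.22 to 0.28 (adjusted p = 0.898), and it was -0.04 without Fat replicate 1 and -0.05 without Con replicate 2.

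**Figure D2:**
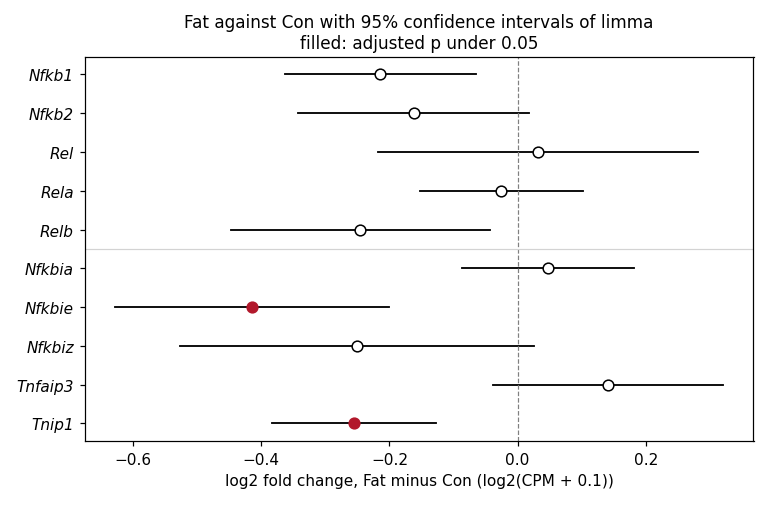
Log2 fold change (Fat minus Con, on the log2(CPM + 0.1) scale) of each gene as a point with its 95% confidence interval as a line, filled where the adjusted p-value was under 0.05. Nfkbie (-0.41) and Tnip1 (-0.25) are filled; the intervals of Nfkb1 and Relb end below 0 before adjustment over all genes, and those of the other 6 genes cross 0.

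The make-up of the subunit pool was described from TPM, with no test, since 2 libraries against 2 cannot give an exact permutation p-value under 0.333. The 5 subunits summed to 184.3 and 168.6 TPM in Con replicates 1 and 2 and to 163.5 and 165.1 TPM in Fat replicates 1 and 2. Con replicate 1 was above the other 3 libraries, which lay close together. Rela and Nfkb1 made up similar shares in Con, 31.8% ± 2.07 and 31.9% ± 0.647 (SD, n = 2). In Fat the share of Rela was 34.2% ± 0.83 and that of Nfkb1 30.1% ± 0.328. Neither share overlapped between media. Nfkb2 held 19.9% ± 0.778 in Con and 19.5% ± 0.809 in Fat, Relb 11.7% ± 0.482 and 10.8% ± 0.136, and Rel 4.79% ± 0.163 and 5.38% ± 0.443. The groups did not overlap for Relb, lower in Fat, or for Rel, higher in Fat, and overlapped for Nfkb2. The rise in the share of Rela, 2.44 percentage points, was 0.978 points without Con replicate 1 and 3.90 without Con replicate 2. That of Rel, 0.589 points, was 0.276 without Fat replicate 1 and 0.902 without Fat replicate 2. The difference of Relb, -0.883 points, was -0.542 without Con replicate 1, and that of Nfkb2, -0.399 points, was above 0 without Con replicate 1 (0.151) or Fat replicate 1 (0.173). Shares sum to 100%, so a larger share of Rela is also what smaller amounts of Nfkb1 and Relb RNA give. The level of Rela itself was 55.9 ± 0.137 TPM in Con and 56.2 ± 0.984 TPM in Fat, which overlapped. The sum of the 5 subunits was 176.5 ± 11.1 TPM in Con and 164.3 ± 1.11 TPM in Fat.

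**Figure D3:**
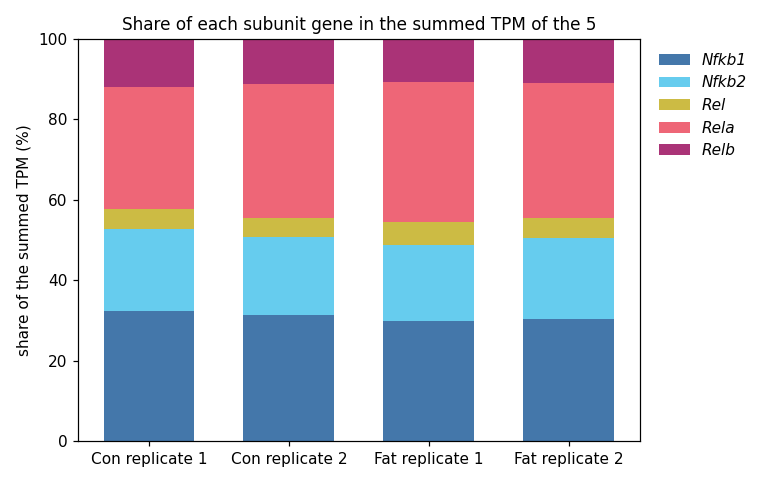
Share of each of the 5 subunit genes in their summed TPM (percent, stacked bars from 0 to 100) in each library. Nfkb1 and Rela are close to 32% each on average in Con (31.9% and 31.8%), and in Fat Rela averages 34.2% and Nfkb1 30.1%.

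Ratios within a library were taken for the inhibitors in the same way. In TPM, the ratio of Nfkbie to Nfkbia was 0.276 and 0.243 in the Con libraries and 0.19 and 0.186 in the Fat libraries. The ratio of Tnip1 to Tnfaip3 was 0.89 ± 0.119 in Con and 0.673 ± 0.0136 in Fat. Neither ratio overlapped between media. The cytoplasmic inhibitors Nfkbia and Nfkbie together summed to 130.2 ± 8.07 TPM in Con and 129.6 ± 3.74 TPM in Fat, which overlapped. Against the summed subunits this was 0.738 ± 0.000557 in Con and 0.789 ± 0.0174 in Fat. The sum leaves out Nfkbib, a further cytoplasmic IκB gene, at 17.0 ± 2.39 TPM in Con and 17.5 ± 3.91 TPM in Fat.

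Other genes of the pathway were taken from lists written by hand with earlier results of these data known. Of the 3 further IκB family genes, 1 was called higher and 0 lower in Fat, against 3.99% and 5% of all tested genes. Nfkbid, an inducible nuclear IκB, was at 22.9 and 27.2 CPM in Con and 34.7 and 38.2 CPM in Fat. Both Fat libraries were above both Con libraries, and the log2 fold change was 0.54 (standard error 0.10, adjusted p = 0.0172). Without Fat replicate 2 the adjusted p-value was 0.0577. The log2 fold changes of Bcl3, a nuclear IκB partner of the Nfkb1 and Nfkb2 products, and of Nfkbib, a cytoplasmic IκB, were -0.05 (adjusted p = 0.81) and -0.0043 (adjusted p = 0.991). Bcl3 and Nfkbib share 6.51% and up to 14.5% of their exon bases with a gene on the opposite strand.

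Among 30 kinases and adaptors that carry the signal from receptors to NF-κB, 3 were called lower and 0 higher. That is 10% of the list, close to the 9% called among all tested genes. The list's median log2 fold change was -0.02. The kinase genes of the canonical pathway were not called. Chuk and Ikbkb, the catalytic subunits of the IκB kinase, had log2 fold changes of 0.06 (adjusted p = 0.639) and 0.08 (adjusted p = 0.495), and Ikbkg, its scaffold, 0.13 (adjusted p = 0.185). For Map3k14, the kinase of the non-canonical pathway, it was 0.21 (95% interval -0.03 to 0.46, adjusted p = 0.272), with 0.34 without Con replicate 1 and 0.078 without Con replicate 2. The 3 genes that fell were Ticam2, an adaptor of Toll-like receptor 4 (log2 fold change -0.41, adjusted p = 0.0128), Ikbke, an inducible kinase related to the IκB kinase that acts in interferon induction (-0.39, adjusted p = 0.0282), and Birc3, a ubiquitin ligase of TNF receptor signalling (-0.39, adjusted p = 0.0326). With the TPM values neither Ikbke (adjusted p = 0.0792) nor Birc3 (0.0869) was called. Without Con replicate 1 only Ticam2 was still called, without Fat replicate 1 Birc3 was not (0.0533), and without Fat replicate 2 the list had 0 calls. Exons of Ticam2 overlap by 14.5% with Tmed7 on the same strand, and those of Map3k14 by 2.06% with 1700028N14Rik. On the opposite strand, Ikbkg shares 5.15% of its exon bases with G6pdx, and Ikbke up to 1.76% with another gene. Of the stretches of 75 bases of Birc3, 5.03% occur in other genes' transcripts.

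Of 23 ubiquitin editors and other brakes on the pathway, limma called 1 higher and 0 lower, against 3.99% and 5% of all tested genes. The quasi-likelihood test of edgeR called 1 higher and 1 lower, against 490 and 648 of all 12470 tested genes. At an unadjusted limma p under 0.05, 4 were higher (11.8% of all genes) and 3 lower (12.4%). Zc3h12a, an endoribonuclease that degrades inflammatory mRNAs, rose from 27.4 and 25.6 CPM in Con to 40.4 and 39.8 CPM in Fat. The groups stood far apart relative to the gap within either, and the log2 fold change was 0.60 (standard error 0.07, adjusted p = 0.0044). The list's median was -0.04.

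Of 20 receptors and co-receptors that signal to NF-κB, 4 were called lower and 0 higher, against 5% and 3.99% of all tested genes. At an unadjusted limma p under 0.05, 10 were lower (12.4% of all genes) and 1 higher (11.8%). Cd40, a costimulatory receptor that drives the non-canonical pathway, fell from 9.11 and 8.80 CPM to 3.51 and 3.78 CPM, a log2 fold change of -1.27 with a standard error of 0.12 (adjusted p = 0.00297). Tlr2, a receptor of bacterial lipoproteins and of products of dying cells, fell from 180.6 and 136.8 CPM to 88.2 and 76.1 CPM (log2 fold change -0.94, adjusted p = 0.0076). Its partner Tlr1 and Nod1, a cytosolic sensor of bacterial cell wall, fell as well, with log2 fold changes of -0.60 and -0.31 (adjusted p = 0.00514 and 0.0273). The call of Nod1 was lost with TPM (0.0857) and without Con replicate 1 (0.109), Fat replicate 1 (0.0533) or Fat replicate 2 (0.131). Of the stretches of 75 bases of Tlr1, 11.6% occur in other genes' transcripts. Over all 20 receptors the median log2 fold change was -0.16.

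NF-κB target genes include cytokines, chemokines, adhesion molecules and survival genes. Of 37 listed targets 35 passed the filter, of which 16 were called lower and 3 higher, 54.3% in all against 9% of all tested genes. Their median log2 fold change was -0.39 and their range -2.43 to 1.29, where the 10 subunit and inhibitor genes ranged from -0.41 to 0.14. A range tends to widen with the number of genes. The median absolute log2 fold change was 0.52 for the targets, 0.19 for the 10 genes and 0.12 for all tested genes. The target list was also written with earlier results of these data known, so its share called is not independent of them. The difference between the lists was not tested. The targets that fell most were Cxcl10, Ccl5, Saa3 and Ccl4, chemokines and an acute phase protein, with log2 fold changes of -2.43, -1.80, -1.72 and -1.69. Cxcl10 and Ccl5 respond to interferon as well, and Birc3 and Traf1 stand in 2 of the lists. Of the exon bases of Cxcl10, 5.91% are also annotated to Art3 on the opposite strand. Il1rn, the antagonist of the interleukin 1 receptor, rose from 176.3 and 184.4 CPM in Con to 502.1 and 387.9 CPM in Fat, and its log2 fold change was 1.29 with a standard error of 0.11 (adjusted p = 0.00286). Ptgs2, the inducible cyclooxygenase of prostaglandin synthesis, rose by less (0.64 on the log2 scale, adjusted p = 0.0216). It was not called without Fat replicate 2 (0.0569). Called targets thus went in both directions.

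**Figure D4:**
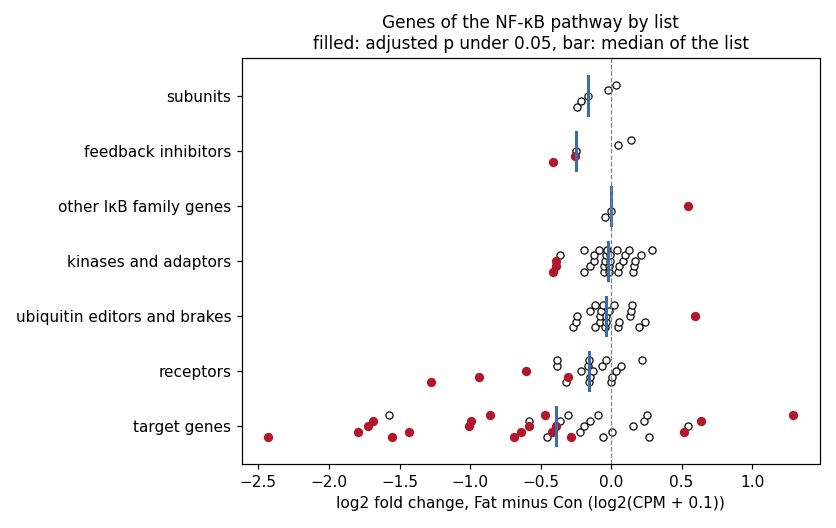
Log2 fold change (Fat minus Con, on the log2(CPM + 0.1) scale) of every tested gene in each list, as 1 point per gene, filled where the adjusted p-value was under 0.05, with the median of the list as a bar. Subunits and inhibitors lie between -0.41 and 0.14, and target genes between -2.43 and 1.29 with 19 of 35 filled.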

How the data were processed

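PolyA RNA was sequenced by the authors as stranded libraries with single reads of 75 bases, and the submitters' processing notes name GRCm39. Aligner, counter, annotation and filters were not given in the sources used here. The authors deposited CPM values, scaled by library size and a further factor per library (0.990 to 1.01), and TPM values, also scaled for gene length. Of the CPM values, 100% were whole multiples of 1 read within 0.001 reads, and 1 read was worth 0.0244 to 0.0295 CPM. Samples were grouped by their titles. The paper's methods name edgeR for this comparison. Because the unit is CPM, genes that reached 0.5 CPM in 2 or more of the 4 libraries were tested with limma 3.58.1 (R 4.3.3), using log2(CPM + 0.1) and modelling the variance as a trend on the mean. The variance of each gene drew on 5.42 prior degrees of freedom from all genes, against 2 residual ones of its own. A fold change on this scale understates the change of low genes. On the recovered reads edgeR 4.0.16 called 1138 genes (490 higher) and DESeq2 1.42.0 called 1060, against 1122 with limma. The fits were also run on simulated counts, whose planted changes were larger than those of the 10 genes. That run therefore does not show whether changes of their size would be found. Other alternatives changed the pseudocount (1 CPM), the filter (none, or a mean of 5 CPM), the unit (TPM), the scaling (median ratios) or the variance model (no trend), added a replicate block, or left out each library. Genes named are all 10 members, the 3 other IκB genes, Chuk, Ikbkb, Ikbkg and Map3k14, and per list up to 4 called genes with the largest change and up to 2 called in the other direction. Fcgr1, Mertk, Cidec, Dcn and Traf1 were named after their values were seen. The members and lists were chosen with earlier results of these data known. Promoter sequences are from RefSeq (GRCm38.p6) and carry that build's coordinates. Shared stretches and exons were computed from GENCODE vM21. Counting SDs reflect read sampling alone, as reads lacking molecular identifiers need not be separate molecules. Figures were made with matplotlib 3.10.9.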

Additional observations from a re-analysis of the deposited data

How the results depend on the processing

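With the TPM values 425 genes were called higher, 366 lower and 0 of the 10 members, with log2 fold changes of -0.38 for Nfkbie and -0.22 for Tnip1, and that of Rela turned to 0.0067. TPM shifted the median log2 fold change of all tested genes to 0.04. Without the mean-variance trend 19 genes were called higher, 12 lower and 0 members (Nfkbie -0.41, adjusted p = 0.144; Tnip1 -0.25, adjusted p = 0.141), and of the named genes of the other lists only Cd40 and Cxcl10 were. The replicates share only a number. Deviations of same-numbered libraries had a correlation of 0.20 over the tested genes and 0.339 over the 9760 whose mean reached 5 CPM, and with the replicate block 1278 genes were called higher, 1242 lower and 4 members lower, with Nfkb1 (-0.21, adjusted p = 0.00724) and Relb (-0.25, adjusted p = 0.0315) added. With each library left out in turn, genes called ranged from 216 to 519 higher and from 313 to 612 lower, and members called from 0 to 1 higher and from 0 to 3 lower. Fewest genes were called without Fat replicate 2. Over the same fits the log2 fold change lay between -0.54 and -0.29 for Nfkbie, -0.28 and -0.23 for Tnip1, -0.29 and -0.14 for Nfkb1, -0.25 and -0.073 for Nfkb2, -0.34 and -0.15 for Relb, -0.042 and -0.0080 for Rela, -0.40 and -0.10 for Nfkbiz, 0.015 and 0.080 for Nfkbia, -0.052 and 0.12 for Rel, and 0.029 and 0.25 for Tnfaip3. The difference in share lay between -2.21 and -1.29 percentage points for Nfkb1, -0.971 and 0.173 for Nfkb2, -1.22 and -0.542 for Relb, 0.978 and 3.90 for Rela, and 0.276 and 0.902 for Rel. Medians lay between -0.25 and -0.073 for the subunits, -0.28 and -0.10 for the inhibitors, and -0.51 and -0.31 for the target genes. The cause of these changes was not tested. Of the values of the 10 genes, the 3 medians, the subunit shares and the counts under the alternatives that leave out no library, 143 kept their direction and call or stayed close, and 15 did not, all given above. Among the other lists 15 of 126 moved.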

Other observations

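Nfkbib differed more between replicates than between media. It was at 13.7 and 12.9 CPM in Con and Fat replicates 1, and at 17.0 and 17.8 CPM in Con and Fat replicates 2.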
